A study of Mus musculus with 24 samples.

Results

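The metallothioneins Mt1, Mt2 and Mt3 and 7 genes that move, store or release iron and zinc were examined in the cerebral cortex of mice with and without lipopolysaccharide (LPS). The 10 genes were taken by symbol from a table of 43346 genes. They are the metal importers Slc39a14, Tfrc and Slc11a1, the iron exporter Slc40a1, the ferritin subunits Fth1 and Ftl1, and the heme-degrading enzyme Hmox1. All 10 passed the filter on low counts, which kept 21891 genes.

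RNA of 24 cortices was sequenced, 1 library per animal, in 4 groups of 6. Mice of the control genotype without stimulus and mice labelled Abca7 without stimulus were 55 to 58 days old (controls to 57). Mice of either genotype that received LPS, a bacterial glycolipid sensed through TLR4, were 54 to 56 days old. The series text calls the Abca7 animals heterozygous and says that LPS was injected. Dose, route, interval, strain, sex and the kind of Abca7 allele were not given in the sources used here. Libraries held 48149131 to 75741388 counts. Levels are in CPM (read counts relative to a library's total, scaled by TMM factors). Every library title carried a number of its own, read here as that of the animal.

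Markers of neurons, astrocytes and oligodendrocytes were present in all 24 libraries. Counts of Abca7 itself averaged 28.6 ± 2.22 CPM (SD, n = 6) in unstimulated controls and 32.1 ± 2.07 CPM in unstimulated mice labelled Abca7. With LPS they averaged 24.5 ± 2.66 and 29.4 ± 2.30 CPM. The mean total count of the gene was thus higher, not lower, in mice labelled Abca7 with and without LPS, though the ranges overlapped. A count over the whole gene does not check an allele that still makes RNA, and the genotype is given here as labelled. Choroid plexus markers differed between groups. The summed level of 9 of them ran from 16.2 to 307 CPM in unstimulated controls (median 26.9) and 193 to 554 CPM in controls with LPS (median 297). Unstimulated mice labelled Abca7 had 62.2 to 509 CPM (median 448), and the same genotype with LPS 37.5 to 437 CPM (median 306). With LPS, 6 of the 9 were called higher in controls and 0 in mice labelled Abca7. For genes expressed there, an LPS effect in controls and a difference in choroid plexus content cannot be told apart. Replicate 4 of the LPS group labelled Abca7 stood apart. It was the lowest of its group for 8 of the 10 genes and the highest for Slc40a1. In whole tissue, fewer cells of a type and less RNA per cell cannot be told apart.

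Metallothioneins are small cysteine-rich proteins that bind zinc and copper. Promoters of the family hold metal response elements, which the zinc-sensing factor MTF1 binds, and Mt1 and Mt2 are also known targets of glucocorticoids and of STAT3 during inflammation, whereas Mt3 is mainly a brain form. Iron enters cells bound to transferrin through the receptor encoded by Tfrc, or unbound through carriers such as SLC39A14 (ZIP14), is stored in ferritin, and leaves through ferroportin, the product of Slc40a1. Ferritin, ferroportin and transferrin receptor transcripts carry iron-responsive elements, RNA hairpins through which iron regulatory proteins set translation or mRNA stability.

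LPS changed 6 of the 10 genes in control mice, 5 upward and 1 downward, at an adjusted p under 0.05. Among all genes tested, 17.3% were called, 9.39% higher and 7.92% lower. In mice labelled Abca7, 5 of 10 were called, 4 higher and 1 lower, where 11.8% of all genes were called, 6.65% higher and 5.18% lower. Mt2 and Mt1 rose most, Slc39a14 and Hmox1 rose less, and Slc40a1 fell, in both genotypes. The groups with and without LPS did not overlap for 5 of 10 genes in controls (9.06% of all genes) and for 4 of 10 in mice labelled Abca7 (5.73% of all genes). The median log2 fold change of the 10 genes was 0.10 in controls and 0.08 in mice labelled Abca7, against 0.01 and 0.01 over all genes.

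**Figure D1:**
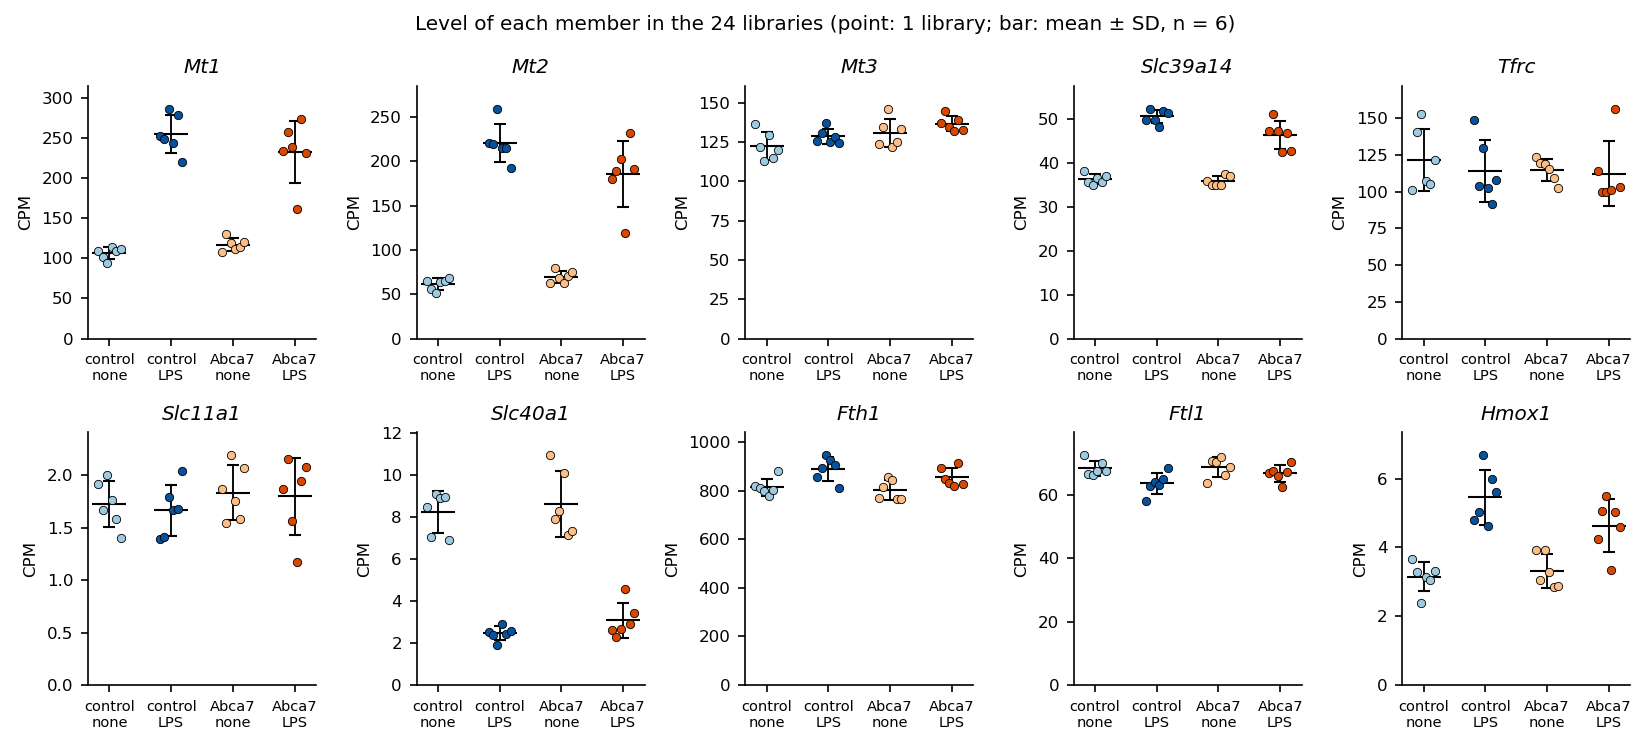
Level of each of the 10 genes in CPM (vertical axes, from 0) in the 24 libraries, by genotype label and stimulus (horizontal axes); each point is 1 library and the bar is the mean ± SD of 6. Mt1, Mt2 and Slc39a14 stand higher and Slc40a1 lower in every LPS library than in any library without LPS, while Mt3, Tfrc and Slc11a1 overlap between all groups.

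The 3 metallothionein genes lie in 1 cluster on chromosome 8 of mm10, all on the plus strand: Mt3 at chr8:94152607-94154148, Mt2 at chr8:94172618-94173567 and Mt1 at chr8:94179089-94180325. The 250 bases before each start, from RefSeq on GRCm38.p6 (mm10 is another name of this assembly), are shown because promoters of the family hold metal response elements. Capitals mark matches to the core of the metal response element, TGCACNC or TGCGCNC, on either strand.
Mt1 upstream, chr8:94178839-94179088, plus strand: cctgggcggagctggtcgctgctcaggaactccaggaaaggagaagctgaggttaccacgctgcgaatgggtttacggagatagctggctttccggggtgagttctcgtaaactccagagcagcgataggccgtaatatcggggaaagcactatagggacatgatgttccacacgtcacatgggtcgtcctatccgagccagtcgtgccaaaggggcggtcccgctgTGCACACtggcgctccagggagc
Mt2 upstream, chr8:94172368-94172617, plus strand: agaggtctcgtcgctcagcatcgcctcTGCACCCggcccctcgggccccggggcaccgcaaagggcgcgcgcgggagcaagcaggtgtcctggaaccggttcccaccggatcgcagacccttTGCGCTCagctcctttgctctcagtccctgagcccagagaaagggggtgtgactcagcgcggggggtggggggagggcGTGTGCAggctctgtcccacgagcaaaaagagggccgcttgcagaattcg
Mt3 upstream, chr8:94152357-94152606, plus strand: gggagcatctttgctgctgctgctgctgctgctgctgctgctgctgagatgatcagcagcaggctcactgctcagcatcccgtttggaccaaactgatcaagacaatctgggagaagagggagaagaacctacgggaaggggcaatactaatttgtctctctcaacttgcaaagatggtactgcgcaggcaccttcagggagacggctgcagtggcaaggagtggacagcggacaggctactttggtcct
Bases just after the start of Mt1, chr8:94179089-94179118, plus strand: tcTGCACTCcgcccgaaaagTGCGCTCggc

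Over the whole window of 250 bases before to 50 after the start, Mt2 had 4 matches, 3 of them before the start, at -223, -128 and -50. Mt1 had 3 matches, 1 before the start at -23 and 2 after it, in the last line shown. Mt3 had 1, after the start. These positions count from 1 annotated RefSeq start per metallothionein gene, and GENCODE M21 starts Mt2 elsewhere, at chr8:94172664. The starts in use in these libraries were not examined. From a start farther along a gene, more bases would count as upstream, so the counts do not compare full promoters. Of 32841 RefSeq windows of 300 bases, 25.7% held at least 1 match, 1.97% at least 3 and 0.518% at least 4. Mt2 also held the antioxidant response element core TGACNNNGC at -79 to -71, found in 12.4% of windows. For Tfrc, 1 of 2 windows held 2 matches, which overlap on opposite strands. The windows of Fth1, Ftl1 and Slc11a1 held none. Windows were found for 7 of the 10 genes. A match describes letters and not binding, and whether the matches bear on the responses to LPS was not tested.

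Mt2, which encodes metallothionein 2, was at 50.9 to 68.3 CPM (median 64.1) in unstimulated controls and at 192 to 259 CPM (median 217) after LPS. Mice labelled Abca7 had 62.2 to 79.4 CPM (median 69.9) without LPS and 119 to 232 CPM (median 190) with it. Every LPS library was above every unstimulated library, in both genotypes. The log2 fold change was 1.84 ± 0.11 (SE, adjusted p = 2.26e-13), or 3.59-fold, in controls and 1.41 ± 0.11 (adjusted p = 6.05e-11), or 2.66-fold, in mice labelled Abca7. It was 1.51 in mice labelled Abca7 without replicate 4. Part of Mt2 overlaps Gm45774, annotated on the opposite strand, and 45.8% of the 50-base sequences of Mt2 occur in it on that strand. A lookup by symbol gave no single entry for Gm45774 among the counted genes, so it has no level here. Without a stated strand setting its reads and those of Mt2 cannot be told apart.

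Mt1, which encodes metallothionein 1, was at 94.6 to 115 CPM (median 109) in unstimulated controls and at 221 to 286 CPM (median 250.4) with LPS. The ranges in mice labelled Abca7 were 108 to 131 CPM (median 116) and 161 to 273 CPM (median 236). The groups did not overlap in either genotype, and the lowest LPS library was again replicate 4 of the mice labelled Abca7. LPS raised Mt1 by 1.26 ± 0.09 on the log2 scale (2.39-fold, adjusted p = 5.73e-12) in controls. The rise in mice labelled Abca7 was 0.99 ± 0.08 (1.99-fold, adjusted p = 8.19e-10), and 1.07 without replicate 4. No 50-base sequence of Mt1 occurred in another gene.

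Mt3, the metallothionein first known as growth inhibitory factor of neurons, did not pass the test. It was at 113 to 136 CPM (median 121) in unstimulated controls, 124 to 137 CPM (median 127) in controls with LPS, 122 to 146 CPM (median 129) in unstimulated mice labelled Abca7 and 132 to 144 CPM (median 136) with LPS in that genotype. All 4 ranges overlapped. The log2 fold change with LPS was 0.07 in controls (95% interval -0.02 to 0.16, adjusted p = 0.338) and 0.06 in mice labelled Abca7 (-0.02 to 0.15, adjusted p = 0.441).

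**Figure D2:**
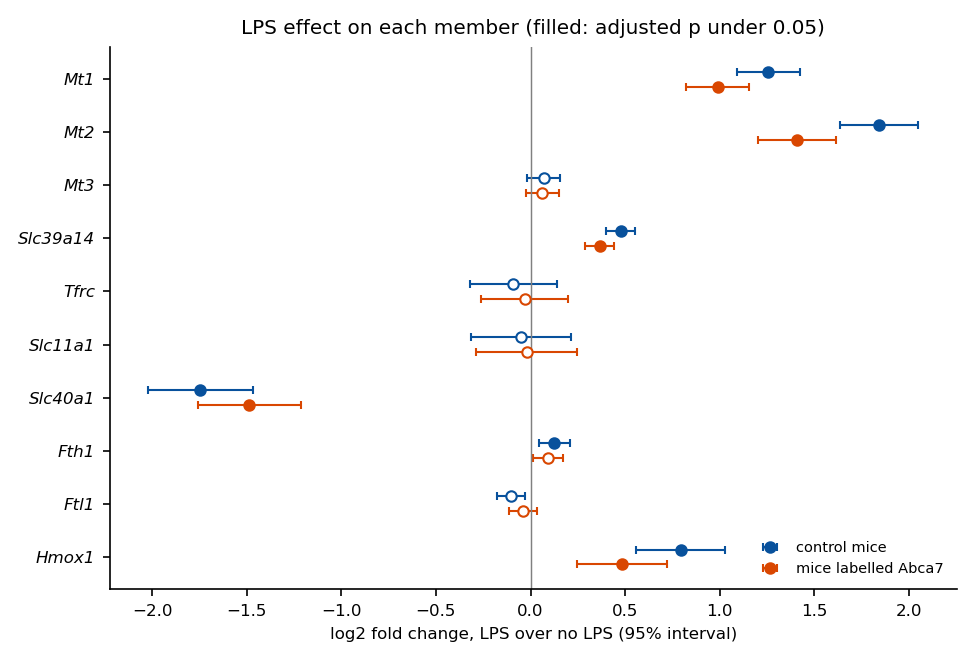
Log2 fold change with LPS (horizontal axis, points with 95% intervals) of each of the 10 genes in control mice (blue) and in mice labelled Abca7 (orange); filled points had an adjusted p under 0.05. Mt2 has the highest value and Slc40a1 the lowest in both genotypes, and Fth1 is filled in controls and open in mice labelled Abca7.

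Ratios of counts within a library do not depend on the scaling of that library. The ratio of Mt2 to Mt1 was 0.538 to 0.611 in unstimulated controls and 0.769 to 0.904 with LPS. Mice labelled Abca7 had values of 0.555 to 0.624 without LPS and 0.734 to 0.849 with it. The ranges did not overlap in either genotype, and Mt2 thus rose more than Mt1 in the same libraries, by 0.59 on the log2 scale in controls and 0.41 in mice labelled Abca7 (exact permutation p = 0.00216 for each, the smallest that 6 against 6 can give; 0.00649 after Benjamini-Hochberg adjustment over 12 comparisons).

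The sum of Mt1 and Mt2 over Mt3 averaged 1.37 ± 0.109 (SD, n = 6) in unstimulated controls and 3.69 ± 0.229 with LPS. Mice labelled Abca7 averaged 1.43 ± 0.0943 and 3.06 ± 0.508. Both rises had an exact permutation p of 0.00216 (adjusted 0.00649). Under LPS the ratio was lower in mice labelled Abca7 than in controls by 0.29 on the log2 scale (exact permutation p = 0.00866, adjusted 0.0148). The difference was -0.19 (exact permutation test, adjusted p = 0.0297) without replicate 4 of the mice labelled Abca7. The ratio of that library, 2.12, was the lowest of the LPS libraries. The denominator differed too: under LPS the genotype difference (log2) was 0.09 for Mt3, -0.13 for Mt1 and -0.25 for Mt2. Without replicate 4 these values were 0.10, -0.05 and -0.15. None of these genes passed the correction over all genes. The adjustment of the ratios covered only the ratio comparisons, which were chosen with earlier results known. Age differed between animals, and at equal age the ratio averaged 3.70 in 3 controls and 3.05 in 2 mice labelled Abca7 at 56 days, 3.55 and 3.41 in 2 and 2 at 55 days, and 3.97 in 1 and 2.70 in 2 at 54 days. The direction was the same at each age, with ranges that overlapped at 55 days. At 54 days, 1 of the 2 mice labelled Abca7 was replicate 4 (ratio 2.12), and the other had a ratio of 3.29.

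**Figure D3:**
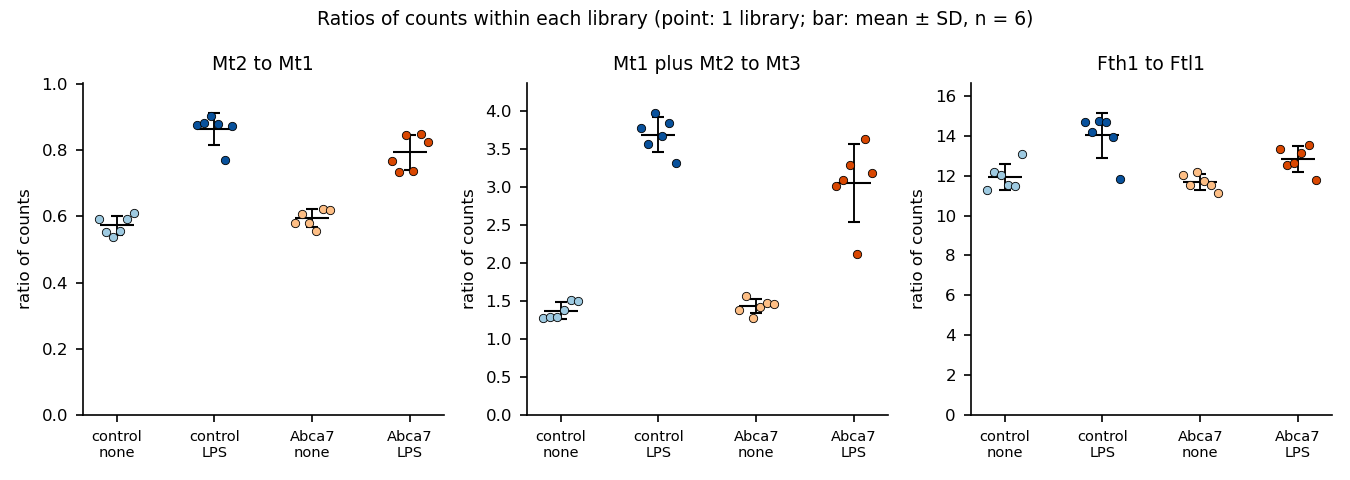
Ratio of counts within each library (vertical axes, from 0) for Mt2 to Mt1, for Mt1 plus Mt2 to Mt3 and for Fth1 to Ftl1, by genotype label and stimulus; each point is 1 library and the bar is the mean ± SD of 6. The metallothionein ratios of libraries with and without LPS do not overlap within a genotype, and the lowest LPS value of Mt1 plus Mt2 to Mt3 is 2.12.

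Slc39a14, at chr14:70303469-70351425 on the minus strand, encodes ZIP14, an importer of zinc, manganese and iron that is not bound to transferrin. It was at 35.0 to 38.1 CPM (median 36.1) in unstimulated controls and at 48.3 to 52.3 CPM (median 50.6) with LPS. The corresponding ranges in mice labelled Abca7 were 34.9 to 37.5 CPM (median 35.5) and 42.5 to 51.0 CPM (median 47.0). The libraries of a group lay close together and the groups with and without LPS did not overlap. Slc39a14 rose by 0.48 ± 0.04 (log2, adjusted p = 2.09e-10) in controls and by 0.37 ± 0.04 (adjusted p = 4.6e-08) in mice labelled Abca7.

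The other 2 importers did not pass the test. Tfrc, at chr16:32608920-32632794, encodes the transferrin receptor. It ranged from 101 to 153 CPM (median 114) in unstimulated controls, 91.7 to 149 CPM (median 106) in controls with LPS, 103 to 123 CPM (median 117) in unstimulated mice labelled Abca7 and 99.4 to 156 CPM (median 102) in the same genotype with LPS. The spread within a group was wide and all groups overlapped (log2 fold change -0.09, 95% interval -0.32 to 0.14, adjusted p = 0.671 in controls; -0.03, -0.26 to 0.20, adjusted p = 0.919 in mice labelled Abca7). Slc11a1, at chr1:74375195-74386062, encodes NRAMP1, which pumps iron and manganese out of phagosomes of macrophages. It had 60 to 146 counts per library and lay between 1.18 and 2.19 CPM over all groups, with log2 fold changes of -0.05 (-0.31 to 0.22) and -0.02 (-0.29 to 0.24).

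Slc40a1, at chr1:45908068-45926523 on the minus strand, encodes ferroportin, the cellular iron exporter. It was at 6.94 to 9.13 CPM (median 8.69) in unstimulated controls and at 1.90 to 2.93 CPM (median 2.48) with LPS. In mice labelled Abca7 the ranges were 7.13 to 10.95 CPM (median 8.12) and 2.27 to 4.59 CPM (median 2.81). Every LPS library was below every unstimulated library, with 126 to 234 counts per LPS library and 351 to 607 per unstimulated library. Slc40a1 fell by 1.74 on the log2 scale (SE 0.14, adjusted p = 1.81e-10) in controls, to 0.298 of the unstimulated level. It fell by 1.49 (SE 0.14, adjusted p = 4.65e-09), to 0.357 of that level, in mice labelled Abca7, and by 1.63 without replicate 4.

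Markers of microglia and of endothelium moved with Slc40a1. The summed level of 10 microglial markers was 286 to 304 CPM in unstimulated controls and 224 to 244 CPM with LPS, with 8 of 10 called lower and 1 higher. That of 9 endothelial markers was 325 to 363 CPM and 249 to 273 CPM, with 6 of 9 lower and 2 higher. In mice labelled Abca7 the microglial sum was 286 to 312 CPM without and 226 to 250 CPM with LPS, and the endothelial sum was 320 to 374 CPM and 242 to 290 CPM. No marker of either list was at 0. Their part in the fall of Slc40a1 was not tested. For the metallothioneins, the summed level of 9 astrocyte markers overlapped between stimuli (4034 to 4481 CPM and 4193 to 4752 CPM in controls), but Slc1a2 alone gave 2897 CPM of the mean sum of 4345 CPM without LPS and was not called. In controls 5 of the 9 were called higher, among them Gfap (111 to 217 CPM, log2 fold change 0.96) and Sox9 (15.3 to 21.3 CPM, 0.48). In mice labelled Abca7 2 of the 9 were, Gfap (0.74) and Aldh1l1 (0.18). Their part was likewise not tested.

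Hmox1, at chr8:75093591-75100596, encodes heme oxygenase 1, which cleaves heme and frees its iron. It was at 2.40 to 3.67 CPM (median 3.21) in unstimulated controls and at 4.61 to 6.67 CPM (median 5.32) with LPS. Mice labelled Abca7 had 2.86 to 3.93 CPM (median 3.16) without and 3.33 to 5.49 CPM (median 4.82) with LPS. The groups were apart in controls, and in mice labelled Abca7 5 of 6 LPS libraries were above all unstimulated ones. Hmox1 rose by 0.79 ± 0.12 (log2, adjusted p = 1.24e-05) in controls and by 0.48 ± 0.12 (adjusted p = 0.00649) in mice labelled Abca7. Replicate 4 was the overlapping library, and the rise was 0.56 without it. Some monocyte markers moved with Hmox1, as with the genes Hp, Lcn2 and Steap4 described further on, though in mice labelled Abca7 their summed ranges overlapped. Of 7 monocyte markers tested, 5 were called higher in controls and 3 in mice labelled Abca7. Their summed level, over 8 genes, was 85.2 to 103 CPM without and 112 to 124 CPM with LPS in controls, and 86.7 to 103 CPM and 101 to 121 CPM in mice labelled Abca7, most of it from Fn1 and Vcan. Of 4 neutrophil markers tested, S100a8 and S100a9 were called higher in both genotypes and Csf3r lower in controls, while the sum of 9 such markers overlapped (5.90 to 7.35 CPM and 5.46 to 8.31 CPM in controls) and Ly6g was at 0 in both control groups. The part of these cells in the rises was not tested.

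Hairpins that match the iron-responsive element were found in transcripts of 4 of the 10 genes, and are shown because iron regulatory proteins act through such hairpins. The pattern was a C, 5 bases, the loop CAGTGN and 5 bases that pair with the 5 before the loop, G-U pairs allowed, and it matched 294 of 21901 protein-coding genes (1.34%) in GENCODE M21. The sites below are 27 bases each on mm10, read along the transcript, and capitals mark the loop CAGTGN.
Fth1 5′ UTR, chr19:9982733-9982759, plus strand: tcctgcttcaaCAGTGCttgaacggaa
Ftl1 5′ UTR, chr7:45459780-45459806, minus strand: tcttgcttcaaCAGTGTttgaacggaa
Slc40a1 5′ UTR, chr1:45925466-45925492, minus strand: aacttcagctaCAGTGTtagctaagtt
Tfrc 3′ UTR, chr16:32631220-32631246, plus strand: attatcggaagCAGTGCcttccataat
Tfrc 3′ UTR, chr16:32631599-32631625, plus strand: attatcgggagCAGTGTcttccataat
Tfrc 3′ UTR, chr16:32631664-32631690, plus strand: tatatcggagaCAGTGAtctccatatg
Tfrc 3′ UTR, chr16:32631711-32631737, plus strand: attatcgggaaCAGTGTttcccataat

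Transcripts of both ferritin genes and of Slc40a1 had 1 site each, in the 5′ UTR, and the transcript of Tfrc had 4 sites in the 3′ UTR. Of the 4 genes, Slc40a1 fell with LPS in both genotypes, Fth1 was called higher in controls, and Ftl1 and Tfrc were not called in either. Protein was not measured, and control through these sites acts in part on translation. The part of these sites in the changes was not tested.

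Fth1, at chr19:9982703-9985092, encodes the ferritin heavy chain, which oxidizes iron for storage. It was at 780 to 882 CPM (median 808) in unstimulated controls and at 812 to 946 CPM (median 901) with LPS, and the groups overlapped, with 4 of 6 LPS libraries above all unstimulated ones. It rose by 0.13 ± 0.04 (log2, adjusted p = 0.0303) in controls. Mice labelled Abca7 had 766 to 858 CPM (median 793) and 821 to 914 CPM (median 842) without and with LPS, a log2 fold change of 0.09 ± 0.04 (adjusted p = 0.162). The call in controls was fragile: it was lost when any of 8 single libraries was left out (adjusted p up to 0.0893 without replicate 3 of the controls with LPS) and with the choroid plexus gene Ttr as a covariate (log2 fold change 0.09, adjusted p = 0.456).

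Ftl1, at chr7:45457944-45459884 on the minus strand, encodes the ferritin light chain. It was at 66.4 to 72.5 CPM (median 67.5) in unstimulated controls and at 58.2 to 68.5 CPM (median 63.7) with LPS, where 5 of 6 libraries were below all unstimulated ones. The log2 fold change was -0.10 ± 0.04 (adjusted p = 0.0554), and DESeq2 called it lower (adjusted p = 0.0280). In mice labelled Abca7 it was at 63.8 to 72.1 CPM (median 69.7) and 62.6 to 70.4 CPM (median 67.2), a log2 fold change of -0.04 (adjusted p = 0.565). Counts of Ftl1 are uncertain: 58.4% of its 50-base sequences occur in other genes, most of them in Ftl1-ps1, and the annotated miRNA gene Gm22133 inside it had 16.7 to 24.01 CPM of its own in the table. A lookup by symbol gave no single entry for Ftl1-ps1, so how shared reads were counted is not known.

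The ratio of Fth1 to Ftl1 within a library was 11.3 to 13.1 in unstimulated controls and 11.8 to 14.7 with LPS, where 1 library, replicate 6, lay within the unstimulated range. In mice labelled Abca7 it was 11.1 to 12.2 and 11.8 to 13.6. It rose by 0.23 (log2) in controls (exact permutation p = 0.00866, adjusted 0.0148) and by 0.13 in mice labelled Abca7 (exact permutation p = 0.00649, adjusted 0.0148).

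No gene of the 10 passed the threshold for the genotype label without LPS (0.032% of all genes did, 7 genes), for the genotype label under LPS (0%) or for the interaction, the difference between the LPS effects of the genotypes (0%). DESeq2 called none of the 10 in these comparisons either. At an unadjusted p under 0.05 there were 1, 3 and 2 of the 10 genes, and 1426, 1748 and 745 of all genes. The LPS effect on Mt2 was smaller by 0.43 ± 0.15 (log2) in mice labelled Abca7 (unadjusted p = 0.00643 in edgeR, adjusted p = 1) and that on Mt1 by 0.27 ± 0.12 (unadjusted p = 0.0328 in edgeR, adjusted p = 1). Without replicate 4 the differences were -0.33 for Mt2 and -0.18 for Mt1.

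Under LPS, Slc39a14 was 0.13 ± 0.04 lower (log2) in mice labelled Abca7, with 5 of 6 libraries below all controls (unadjusted p = 0.00278 in edgeR, adjusted p = 0.340), and 0.10 lower without replicate 4. Mt2 was 0.25 ± 0.10 lower, with 4 of 6 libraries below all controls (adjusted p = 0.534), and 0.15 lower without replicate 4. Hmox1 was 0.24 ± 0.12 lower (adjusted p = 0.633), and 0.16 lower without replicate 4. Slc40a1 was 0.32 ± 0.15 higher (adjusted p = 0.596), and 0.18 higher without replicate 4. At 55 days the direction for Mt2 was not seen, with a mean of 207 CPM in 2 controls and 212 CPM in 2 mice labelled Abca7. At 56 days that for Slc40a1 was not seen, with 2.58 CPM in 3 controls and 2.44 CPM in 2 mice labelled Abca7. Without LPS, Mt3 was 0.09 ± 0.04 higher in mice labelled Abca7 (unadjusted p = 0.0467 in edgeR, adjusted p = 0.766). These differences between the genotypes did not hold up against the correction over all genes.

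Per kilobase of the gene length given in the table, Fth1 had the highest level of the 10 in every group (942 ± 40.2 CPM per kb in unstimulated controls). Mt3 (228 ± 16.6) and Mt1 (198 ± 13.6) followed with ranges that overlapped, then Mt2 (110 ± 11.7), Ftl1 (51.1 ± 1.79), Tfrc (19.6 ± 3.43), Slc39a14 (3.44 ± 0.110), Hmox1 (1.46 ± 0.195), Slc40a1 (0.917 ± 0.110) and Slc11a1 (0.466 ± 0.0599), each apart from its neighbour. With LPS in controls, Mt1 (473 ± 44.7) and Mt2 (396 ± 38.9) stood above Mt3 (239 ± 9.14), with ranges of Mt1 and Mt2 that overlapped. Slc40a1 (0.273 ± 0.0370) moved to the last place below Slc11a1. The upper ranks depend on the length used: by all exons in GENCODE M21, which are longer for Fth1, Mt1 and Mt3, Mt2 led in controls with LPS at 374 ± 36.7 CPM per kb before Fth1 at 257 ± 14.3.

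After subtraction of each group's mean, genes whose log2 CPM ran most like that of Mt2 over the 24 libraries, among 14941 genes, included Errfi1, Otub1, Pim1 and Cd14, with Pearson r of 0.86 to 0.85. These fell to 0.73 to 0.65 without replicate 4 of the LPS group labelled Abca7. Mt1 had r = 0.93 with Mt2 (0.84 without that library), and Slc40a1 had r = -0.66 (-0.42). Those most like Slc40a1 were Hpgds, Mmrn2, Ppp2r5a, Tek (a receptor of endothelial cells) and Slco2b1, with r of 0.80 to 0.73, and 0.69 to 0.55 without that library. The points share libraries and their depth, and these values are descriptions.

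Around the 10 genes, 12 lists of other metal genes held 93 genes, of which 88 were tested. LPS raised 22 and lowered 9 of the 88 in controls (17.3% of all genes called), and raised 15 and lowered 7 in mice labelled Abca7 (11.8%). None was called in edgeR by genotype label without LPS, under LPS or by interaction, where 8, 15 and 9 had an unadjusted p under 0.05 and DESeq2 called 1, 0 and 0. With Ttr as a covariate 12 rose and 5 fell in controls. Ttr itself had a median of 12.8 CPM without and 250 CPM with LPS in controls, so there this covariate and the stimulus ran together. A call lost with it can also reflect lost precision. Of the genes named in what follows, Slc39a4, Slc39a2, Slc30a6, Steap1, Bmp2, Ncoa4, Flvcr2, Bach2 and Srxn1 were not called with that covariate.

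Among genes of iron uptake and reduction, 4 of 9 tested rose in controls and 2 in mice labelled Abca7. Steap4, a metalloreductase known to respond to inflammation, went from 0.339 to 21.9 CPM in controls and from 0.547 to 15.6 CPM in mice labelled Abca7, log2 fold changes of 6.01 ± 0.36 and 4.85 ± 0.34. Scara5, a ferritin receptor, rose by 1.71 ± 0.19 (from 0.719 to 2.36 CPM in controls) and 0.85 ± 0.19. Steap1, another of the STEAP family, rose by 1.81 ± 0.42 in controls, from 0.231 to 0.814 CPM (0.01 with Ttr as a covariate). In mice labelled Abca7 its log2 fold change was 0.15. Of the 3 iron oxidases, which oxidize exported iron so that transferrin can bind it, Cp (ceruloplasmin) rose by 2.20 ± 0.13 and 1.94 ± 0.13, and Heph (hephaestin) by 0.58 ± 0.09 and 0.26 ± 0.09.

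Lcn2, the siderophore-binding lipocalin 2, went from 0.288 to 94.6 CPM in controls and from 0.701 to 77.0 CPM in mice labelled Abca7, log2 fold changes of 8.37 ± 0.30 and 6.80 ± 0.26. The other 2 genes of its list were not called. Among 12 genes of heme synthesis, transport and breakdown, 2 rose and 3 fell in controls. Hp, which encodes the hemoglobin scavenger haptoglobin, rose by 2.96 ± 0.40, at low levels (from 0.167 to 1.30 CPM, with an SD of 0.790 under LPS). Cd163, the macrophage receptor for haptoglobin-bound hemoglobin, fell by 0.77 (SE 0.12), and Flvcr2 (listed as Mfsd7c), a membrane transporter, fell by 0.74 (SE 0.17). Erythrocyte markers summed to 15.6 to 70.3 CPM over all libraries, and none of the 5 tested was called.

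Among the regulators, Bach1, a repressor of Hmox1, rose by 1.14 ± 0.09 in controls and 1.11 ± 0.09 in mice labelled Abca7. Nfe2l2, which encodes the oxidant-responsive activator NRF2, rose by 0.76 ± 0.07 and 0.58 ± 0.07. Bach2 fell by 0.26 (SE 0.09) in controls. Mtf1, which encodes the factor that binds metal response elements and is named here after its values were seen, was called lower in both genotypes, at -0.22 ± 0.04 and -0.15 ± 0.04. Of 9 NRF2 targets, 5 rose in controls and 3 in mice labelled Abca7. Among those that rose in controls were Osgin1 (0.93 ± 0.21, from 0.487 to 0.914 CPM), Slc7a11, the cystine importer (0.54 ± 0.10), and Srxn1, sulfiredoxin (0.29 ± 0.05).

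Of 13 other zinc importers of the ZIP family, 2 rose and 2 fell in controls, and 1 rose and 2 fell in mice labelled Abca7. Slc39a4 had the largest change in controls (1.52 ± 0.44, from 0.170 to 0.492 CPM; -0.09 with Ttr as a covariate), Slc39a2 fell by 0.41 (SE 0.10), and Slc39a1 rose by 0.32 ± 0.04. Of 9 zinc exporters tested, Slc30a10, a manganese exporter of that family, fell by 0.33 (SE 0.05) and Slc30a6 rose by 0.22 ± 0.06 in controls. Slc30a10 was also called lower in mice labelled Abca7, at -0.27 ± 0.05. Around hepcidin, the hormone that removes ferroportin from the membrane, 7 genes were tested. Of these, 2 rose and 1 fell in controls, and 3 rose and 1 fell in mice labelled Abca7. Tmprss6, a protease that restrains hepcidin, rose by 1.08 ± 0.21 in controls (from 0.839 to 1.79 CPM) and by 0.67 ± 0.21 in mice labelled Abca7. Bmp2, a ligand that induces hepcidin, rose by 0.35 ± 0.09 (0.22 with Ttr as a covariate) and 0.32 ± 0.09. Acvr1, a receptor of such ligands, was called lower in both, at -0.20 ± 0.06 and -0.22 ± 0.06. Hamp, which encodes hepcidin itself, did not pass the filter on low counts. Ncoa4, the receptor for ferritin turnover, rose by 0.12 ± 0.04 in controls as the only one of 6 genes of iron sensing tested. None of 5 mitochondrial iron genes and none of 7 copper genes was called in either genotype by edgeR or DESeq2. In edgeR 17.3% of all genes were called in controls and 11.8% in mice labelled Abca7. For lists this small, 0 or 1 call is not far from those shares. At an unadjusted p under 0.05 these were 0 and 2 in controls and 0 and 1 in mice labelled Abca7. Of all 21891 genes, 6364 and 5141 had such a p.

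**Figure D4:**
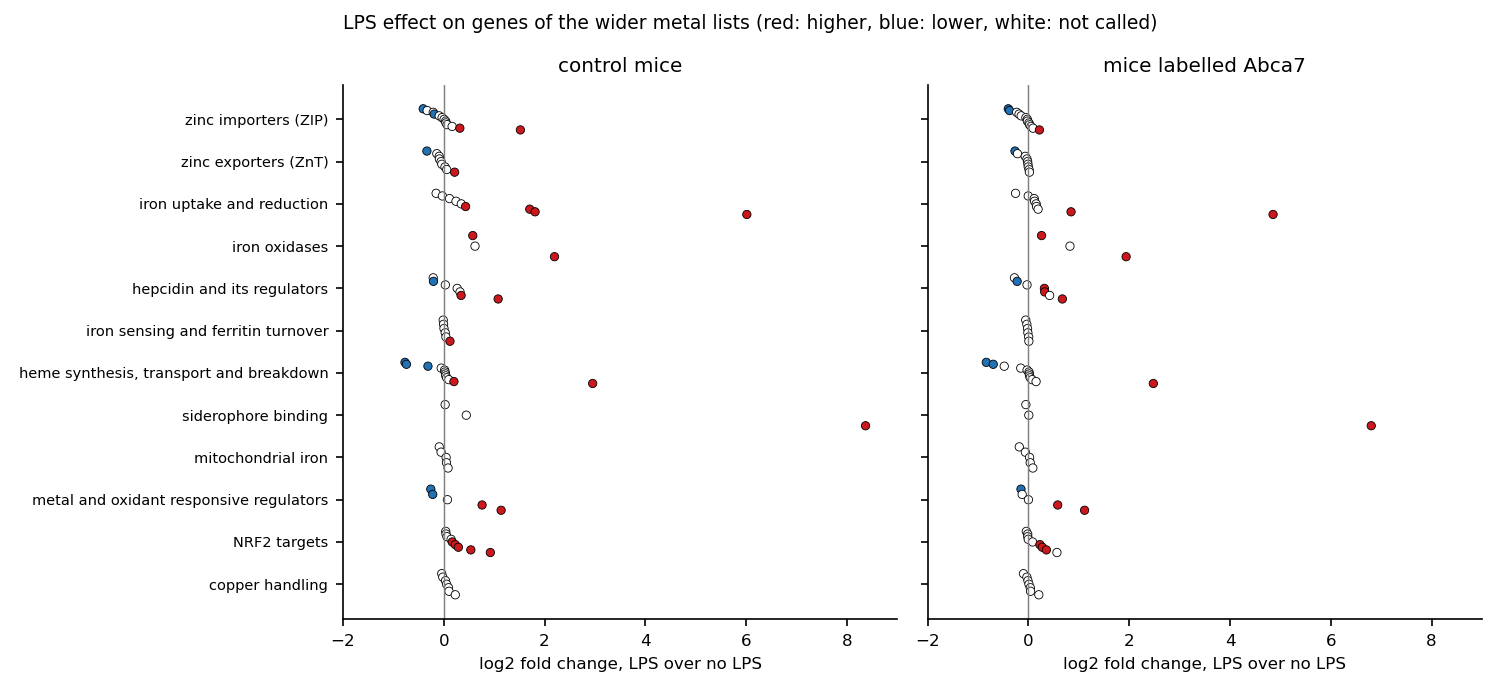
Log2 fold change with LPS (horizontal axes) of 88 genes in 12 lists of metal handling (rows), in control mice (left) and mice labelled Abca7 (right); each point is 1 gene, red where called higher, blue where called lower and white where not called. Lcn2 at 8.37 and Steap4 at 6.01 lie farthest to the right in controls. All mitochondrial iron and copper genes are white, where 17.3% of all genes were called in controls and 11.8% in mice labelled Abca7.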

How the data were processed

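Per the series text, the authors made raw gene counts with MAP-RSeq 2.1.1 on mm10, and the aligner was STAR 2.5.2b, per the submitters' processing notes. The deposited values are whole read counts per gene with no normalization. The annotation release, strand setting and handling of reads with several matches were not given in the sources used here. Of 43346 genes, 42462 identifiers occur in GENCODE M21, which was used for overlaps and shared sequence.

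The counts of all 24 libraries entered 1 fit in edgeR 4.0.16 (R 4.3.3) with 1 coefficient per group, filterByExpr, TMM factors and the two-sided quasi-likelihood F test. Adjusted p-values are Benjamini-Hochberg values over 21891 genes, with a threshold of 0.05. The SE was taken as the log2 fold change over the root of its F statistic. Single ratios were compared with exact two-sided permutation tests. All 10 genes are named, and from each wider list up to 3 called genes with the largest change in controls, and the 5 genes most like Mt2 and Slc40a1, of which 1 is not reported here. The genes, lists and tests were chosen with earlier results of these data known. Alternatives were DESeq2 1.42.0, upper-quartile factors, leaving out ribosomal RNA repeat loci, no filter, age, Ttr or 2 surrogate variables (sva 3.50.0) as covariates, and leaving out each library. Replicate numbers follow accession order and do not pair libraries.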

Additional observations from a re-analysis of the deposited data

Results flagged for a closer look

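In each of 40 sets of 6 libraries (10 genes in 4 groups), the gap between an extreme library and its neighbour was compared with Dixon's 95% critical value, and chance alone gives about 1 such gap in 20 sets. It was passed in 2 sets. Mt1 in replicate 4 of the LPS group labelled Abca7 was at 7.33 log2 CPM (161 CPM), while the other 5 libraries were at 232 to 273 CPM, so that the gap was 0.688 of the range. Tfrc in replicate 5 of the same group was at 7.29 log2 CPM (156 CPM), with a gap of 0.698 of the range.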

How the results depend on the processing

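The calls of Mt1, Mt2, Slc39a14, Slc40a1 and Hmox1 with LPS were the same under every alternative run, and no value past the threshold changed sign. Fth1 in controls lost its call without a filter on low counts (adjusted p = 0.0510), with age (0.0572), with Ttr (0.456), with 2 surrogate variables (0.109) and without any of 8 single libraries (replicates 2 to 5 of both control groups), with log2 fold changes of 0.11 to 0.15 over all libraries left out. Ftl1 in controls was called lower with DESeq2 (adjusted p = 0.0280), upper-quartile factors (0.0296), without ribosomal RNA loci (0.0458), with age (0.0483) and 2 surrogate variables (0.00131), and without 4 single libraries. All genes called with LPS in controls numbered 3790, and 1626 with Ttr as a covariate; for the wider lists, added after the data were seen, these were 31 and 17. For the genotype label without LPS, 7 genes were called, and 33 with DESeq2, 49 with age, 3 with Ttr, 63 with 2 surrogate variables and 2 to 38 without single libraries (1 gene of the wider lists with DESeq2, with age and without replicate 1 of the unstimulated controls). Under LPS 0 were called, and 41 with DESeq2, 2 with age, 2 with surrogate variables and 0 to 1 without single libraries; for the interaction, 0 to 7. Under LPS the genotypes differed in the log2 ratio of Mt2 to Mt1 by -0.12 (exact permutation test, adjusted p = 0.0682; -0.16 to -0.10 without single libraries, adjusted p = 0.0130 without replicate 5 of the control LPS group). In the ratio of Fth1 to Ftl1 they differed by -0.13 (adjusted p = 0.0866; -0.17 to -0.10, with 0.00866 without replicate 6 of that group). The cause of these shifts was not tested. No paired analysis was possible because the libraries carry animal numbers and no number shared between groups. Slc11a1 had the lowest counts of the 10 genes, 60 to 146 per library, and its 95% intervals with LPS were -0.31 to 0.22 and -0.29 to 0.24.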
